A study of Mus musculus with 8 samples.

Results

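The 10 genes described here encode the transcription factor Nrf2, its inhibitor Keap1 and 8 antioxidant genes that Nrf2 is known to switch on. They were chosen by name, and all probes on the arrays that carry their symbols were taken. The arrays held 17 probes for 9 of the 10 genes, out of 25697 probes carrying 18120 gene symbols. Srxn1 was found under its older symbol Npn3, a name of a single gene in the RefSeq annotation, and no probe was matched to Gsr (glutathione reductase), which is not analysed here. STHdh cells are a conditionally immortalized striatal progenitor line from embryonic mice, carrying wild-type huntingtin. In 4 cultures they were transfected with the plasmid pcDNA3.1 carrying mouse Bcl11b cDNA (beta isoform), and in the other 4 with the empty pcDNA3.1 plasmid, which the labels also call wild-type. Each culture gave RNA for 1 Illumina MouseRef-8 v2 BeadChip array, so n = 4 per group throughout. The transfection was transient and the insert is driven by the plasmid's viral promoter, so each sample mixes cells that took up the plasmid with cells that did not. Fewer cells expressing a gene and less RNA per cell cannot be told apart in such samples.

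Nrf2, encoded by Nfe2l2, is made continuously and destroyed continuously. Keap1 holds it for ubiquitination by a Cul3 ligase, and oxidants or electrophiles that modify cysteines of Keap1 stop this. Nrf2 then enters the nucleus, pairs with a small Maf protein and binds the antioxidant response element (ARE), a short DNA motif near its target genes. In brain tissue the pathway is known to be stronger in astrocytes than in mature neurons.

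The ARE is what the target genes are known for, so the stretches that carry its core are shown first. The core TGACNNNGC was searched on both strands of RefSeq promoter windows of GRCm38.p6, which run from 250 bases before to 50 bases after a gene's start. Windows were found for 7 of the 10 genes (Nqo1, Gclm, Txnrd1, Srxn1, Prdx1, Nfe2l2 and Keap1), and 5 of these genes had a core in a window. Of all 27025 genes with a window, 14.0% had one. The core is in capitals, in the direction of the gene, and where it lies on the opposite strand its reverse complement is capitalized. The malic enzyme gene Me1 and the small Maf gene Maff are added as the only 2 with a core among the 10 related genes named below, of which 9 had a window.
Gclm, chr3:122245403-122245451, plus strand, core at -134 from the start: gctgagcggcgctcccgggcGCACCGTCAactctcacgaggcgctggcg
Txnrd1, chr10:82859094-82859142, plus strand, core at -92 from 1 of its 3 starts: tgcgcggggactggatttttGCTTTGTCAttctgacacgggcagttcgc
Srxn1, chr2:152105532-152105573, plus strand, core at 29: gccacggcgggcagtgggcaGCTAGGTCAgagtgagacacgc
Prdx1, chr4:116685446-116685494, plus strand, core at -133: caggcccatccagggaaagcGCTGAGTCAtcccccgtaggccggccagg
Nfe2l2, chr2:75704875-75704913, minus strand, core at -240: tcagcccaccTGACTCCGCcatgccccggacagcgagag
Me1, chr9:86695892-86695940, minus strand, core at -6 from 1 of its 2 starts: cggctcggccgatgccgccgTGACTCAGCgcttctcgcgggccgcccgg
Maff, chr15:79346489-79346537, plus strand, core at -112 from 1 of its 3 starts: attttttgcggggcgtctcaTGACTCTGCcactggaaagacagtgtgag

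The cores of Prdx1 and Me1 each overlap the motif TGANTCA, the site of the Fos and Jun proteins. That motif was present for 8.97% of all genes with a window and for 2 of the 7 genes, Prdx1 and Srxn1. No core was found in the windows of Nqo1 and Keap1. Hmox1, Gclc and Gsr had no window, and sequence outside the windows was not searched, so a core further away is not excluded. These matches are letters in a window and say nothing of binding.

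Each array gives a background-subtracted signal per probe and a detection p-value against its negative control beads, and a probe is called detected where that p-value is under 0.01. After quantile normalization, signals under 1 were raised to 1 and log2 was taken. Before normalization the pcDNA3.1 arrays were brighter, with median signals of 31.6 to 53.9 against 20.1 to 30.2 on the Bcl11b arrays, while 10121 to 10784 and 10342 to 10644 probes were detected. With limma over all probes and an adjusted p-value under 0.10, Bcl11b transfection went with 91 higher and 161 lower probes, or 0.981% in all. At this adjusted threshold the excess of lower probes was lost by limma-trend (35 higher and 10 lower) and with the replicate number as a block (23 higher and 22 lower). It was also lost on leaving out any 1 array other than pcDNA3.1 replicate 2 or Bcl11b replicate 4. Without Bcl11b replicate 3, for example, 55 were higher and 33 lower. It was kept in the other alternatives. Bcl11b itself has 1 probe (ILMN_2611022), detected on none of the arrays; whether it lies within the transfected cDNA is not known, so it does not check the transfection. Of the 6 medium spiny neuron markers on the array none was detected, and none of the astrocyte, oligodendrocyte, microglia or endothelial markers was detected either. The study reports PCR products of some of these neuron markers from STHdh cells, so a marker not detected here need not be absent. Of the 6 progenitor markers, Nes, Sox2 and Vim were detected on all 8 arrays and Pax6, Fabp7 and Gsx2 on none. Of the 6 mesenchymal markers, Col1a1, Acta2, Pdgfra and Pdgfrb were detected on all 8 arrays, Col3a1 on 7 and Col1a2 on none. Pdgfra was lower in Bcl11b-transfected cells with a log2 difference of -0.70 (limma, adjusted p = 0.00296). The differences of the other mesenchymal markers, none under an adjusted 0.10, were -0.49 for Pdgfrb, -0.87 for Col3a1, -0.04 for Acta2 and 0.22 for Col1a1. Summed without logs, the mesenchymal markers had signals of 14220 to 16980 in pcDNA3.1 cells and 14770 to 15320 in Bcl11b-transfected cells. Most of that sum is Acta2 (mean log2 signal 13.55 in pcDNA3.1 and 13.51 in Bcl11b-transfected cells), so a dim marker such as Pdgfra (8.25 and 7.55) hardly moves it. The part of these markers in the results below was not tested.

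Hmox1, which encodes the enzyme that breaks haem down to biliverdin, iron and carbon monoxide, was higher in Bcl11b-transfected cells at an unadjusted p-value only. Its signal (ILMN_2788073) was 10.01, 9.97, 9.61 and 9.59 on the 4 pcDNA3.1 arrays in log2 units. On the 4 Bcl11b arrays it was 10.10, 10.12, 10.24 and 10.53. All 4 Bcl11b arrays lay above all 4 pcDNA3.1 arrays, with a gap between the groups smaller than the spread within either. The means were 9.80 ± 0.226 and 10.25 ± 0.200 (SD, n = 4 each), a log2 difference of 0.45 or 1.37-fold (standard error 0.146, 95% interval 0.10 to 0.81). The unadjusted p was 0.0193 and the p adjusted over all probes was 0.346 from limma. An exact two-sided permutation test over the 70 splits of the arrays gave 0.0286, the smallest value that 4 against 4 can give. The difference was no longer under 0.05 without pcDNA3.1 replicate 3 (0.0510, adjusted p = 0.543 from limma) or pcDNA3.1 replicate 4 (0.0501, adjusted p = 0.667 from limma). Without normalization between arrays it turned to -0.24.

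Nqo1, which encodes a quinone reductase and is a standard readout of Nrf2 activity, had a bright probe that did not pass the test and a dim one that was detected in pcDNA3.1 cells only. The bright probe (ILMN_2726371), detected on all arrays, was 10.13, 10.61, 10.47 and 10.41 in pcDNA3.1 cells and 9.86, 10.0045, 10.27 and 10.42 in Bcl11b-transfected cells, in log2 signal. Bcl11b replicates 3 and 4 lay within the range of the pcDNA3.1 arrays. The log2 difference was -0.27 (standard error 0.156, 95% interval -0.64 to 0.11, adjusted p = 0.671 from limma). The dim probe (ILMN_2766386) was 6.75, 5.85, 6.27 and 6.64 in pcDNA3.1 cells against 5.17, 5.22, 5.70 and 5.57 in Bcl11b-transfected cells, and its groups did not overlap. It was detected on 2 pcDNA3.1 arrays and on no Bcl11b array, so its change is given as a bound. The bound was 1.01-fold lower. It rests on the mean of all pcDNA3.1 arrays, including those where the probe was not detected, and has no interval, so it establishes no fall. The adjusted p was 0.214 from limma, a test that sets signals below detection against dim ones and supports no call.

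**Figure D1:**
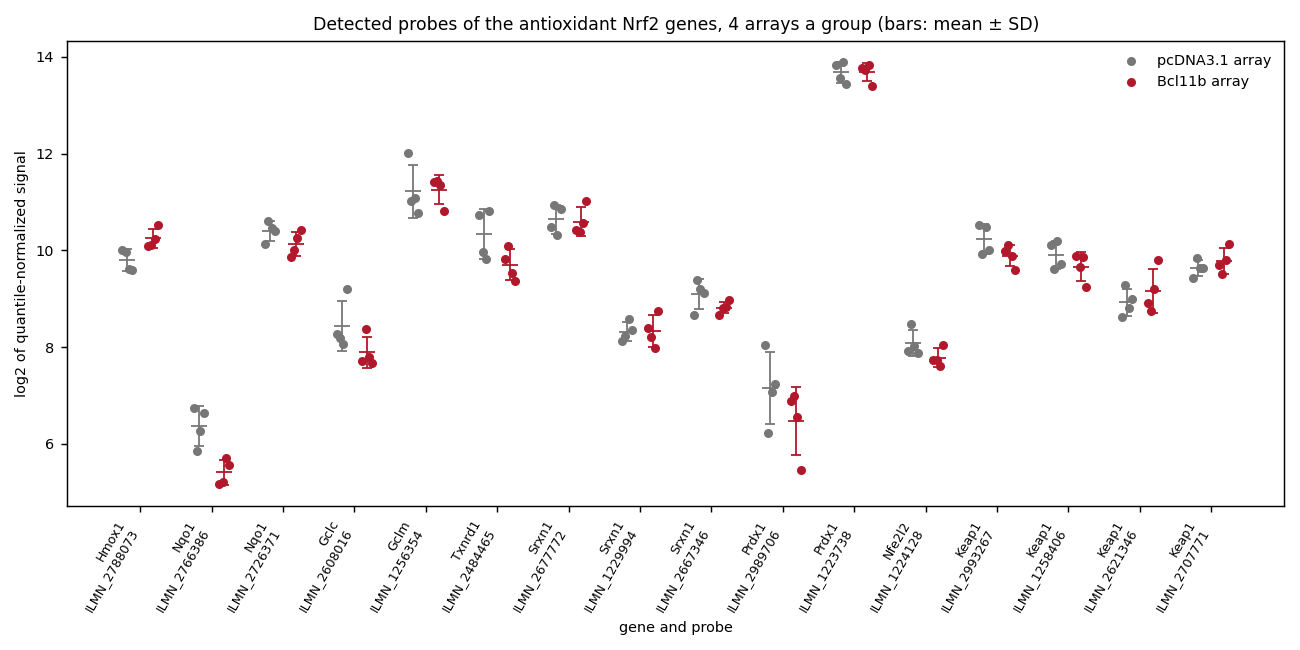
Log2 of the quantile-normalized signal (vertical axis) for the 16 detected probes of the 9 genes (horizontal axis), with 1 point per array, grey for pcDNA3.1 and red for Bcl11b, and mean ± SD bars over 4 arrays. The groups separate for Hmox1 and for the dim Nqo1 probe ILMN_2766386, and overlap for the other 14 probes.

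The enzymes of glutathione synthesis did not pass the test. Gclc and Gclm encode the catalytic and the modifier subunit of glutamate-cysteine ligase, the rate-limiting step. For Gclc (ILMN_2608016) the log2 signals were 8.28, 8.19, 8.06 and 9.21 in pcDNA3.1 cells and 7.72, 8.37, 7.80 and 7.68 in Bcl11b-transfected cells. The lowest 3 of the 8 arrays were all Bcl11b arrays, but Bcl11b replicate 2 exceeded 3 of the pcDNA3.1 arrays. The difference was -0.54 on the log2 scale (standard error 0.298, 95% interval -1.26 to 0.17, adjusted p = 0.659 from limma), and it was -0.29 without pcDNA3.1 replicate 4. Gclm (ILMN_1256354) was 12.01, 11.02, 11.08 and 10.78 against 11.42, 11.44, 11.35 and 10.83, with a difference of 0.04 (95% interval -0.68 to 0.75, adjusted p = 1 from limma). The high value of pcDNA3.1 replicate 1 widens that interval, and the sign of the difference changed with the array left out (-0.11 without pcDNA3.1 replicate 4 and 0.30 without pcDNA3.1 replicate 1).

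In the thioredoxin branch, Txnrd1 (ILMN_2484465), the cytosolic reductase that keeps thioredoxin reduced, had log2 signals of 10.73, 9.97, 9.82 and 10.82 in pcDNA3.1 cells. In Bcl11b-transfected cells they were 9.82, 10.10, 9.53 and 9.37. Thus pcDNA3.1 replicates 1 and 4 stood above every Bcl11b array, and replicates 2 and 3 did not. The difference was -0.63 (standard error 0.294, 95% interval -1.34 to 0.08, unadjusted p = 0.0734 and adjusted p = 0.552 from limma). The unadjusted limma p was 0.0423 where only probes detected on at least 4 arrays were fitted and 0.0348 without pcDNA3.1 replicate 3. It was under 0.05 in 3 of 16 alternatives, over which it ranged from 0.0222 to 0.167. The 0.0222 came without normalization between arrays, where 48.7% of all detected probes passed. The exact permutation p was 0.143 (two-sided).

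Srxn1, which encodes sulfiredoxin, the enzyme that repairs over-oxidized peroxiredoxins, had 3 probes detected on all arrays. The brightest (ILMN_2677772) was 10.47, 10.93, 10.31 and 10.86 in pcDNA3.1 cells and 10.43, 10.37, 10.57 and 11.03 in Bcl11b-transfected cells, a log2 difference of -0.05 (95% interval -0.54 to 0.45). The second (ILMN_2667346) had a difference of -0.27 (95% interval -0.66 to 0.11) and the dimmest (ILMN_1229994) one of 0.01 (95% interval -0.43 to 0.46). Their groups overlapped on all 3 probes. With 1 array left out, the difference of ILMN_2667346 ranged from -0.41, without pcDNA3.1 replicate 1, to -0.18, without pcDNA3.1 replicate 2, and of these fits only the former was under an unadjusted 0.05.

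Prdx1, a peroxiredoxin that reduces hydrogen peroxide, gave the brightest signal of the set. Its bright probe (ILMN_1223738) was 13.84, 13.57, 13.89 and 13.44 in pcDNA3.1 cells and 13.76, 13.74, 13.83 and 13.41 in Bcl11b-transfected cells, above 98.9% of detected probes. The 2 means, 13.68 ± 0.215 and 13.68 ± 0.189 (SD, n = 4 each), differed by 0.0015 on the log2 scale, with a 95% interval of -0.33 to 0.34. The dim Prdx1 probe (ILMN_2989706) spread widely, from 6.23 to 8.05 in pcDNA3.1 cells and from 5.45 to 6.99 in Bcl11b-transfected cells, and its difference of -0.68 has a 95% interval of -1.88 to 0.52. The bright probe depends on the scaling: after division by the median signal of the array its difference was 0.43 with a standard error of 0.231, outside the interval above.

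Nfe2l2 itself was dim. Its detected probe (ILMN_1224128) was 7.92, 8.47, 8.03 and 7.89 in pcDNA3.1 cells and 7.74, 7.74, 7.60 and 8.05 in Bcl11b-transfected cells, in log2 signal. Bcl11b replicates 1, 2 and 3 lay below all pcDNA3.1 arrays, and Bcl11b replicate 4 lay within them. The difference was -0.29 (standard error 0.160, 95% interval -0.68 to 0.09, adjusted p = 0.655 from limma), and it was -0.16 without pcDNA3.1 replicate 2. The second Nfe2l2 probe (ILMN_1214369) was not detected on any array.

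The 4 Keap1 probes, each detected on all 8 arrays, differed in sign. The log2 differences were -0.34 (ILMN_2993267, 95% interval -0.78 to 0.10) and -0.25 (ILMN_1258406, -0.73 to 0.23) for a first pair of probes. They were 0.15 (ILMN_2707771, -0.22 to 0.51) and 0.24 (ILMN_2621346, -0.39 to 0.86) for the second pair. None passed an unadjusted p-value of 0.05. The values of the second pair rest on Bcl11b replicate 4, without which both were 0.03, while the first pair was then at -0.24 and -0.11. The probes also placed this array at opposite ends. On Bcl11b replicate 4 the first pair gave its lowest values of the group, 9.59 and 9.24, and the second pair its highest, 10.14 and 9.79. The deposited file does not give the part of the transcript that each probe covers.

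**Figure D2:**
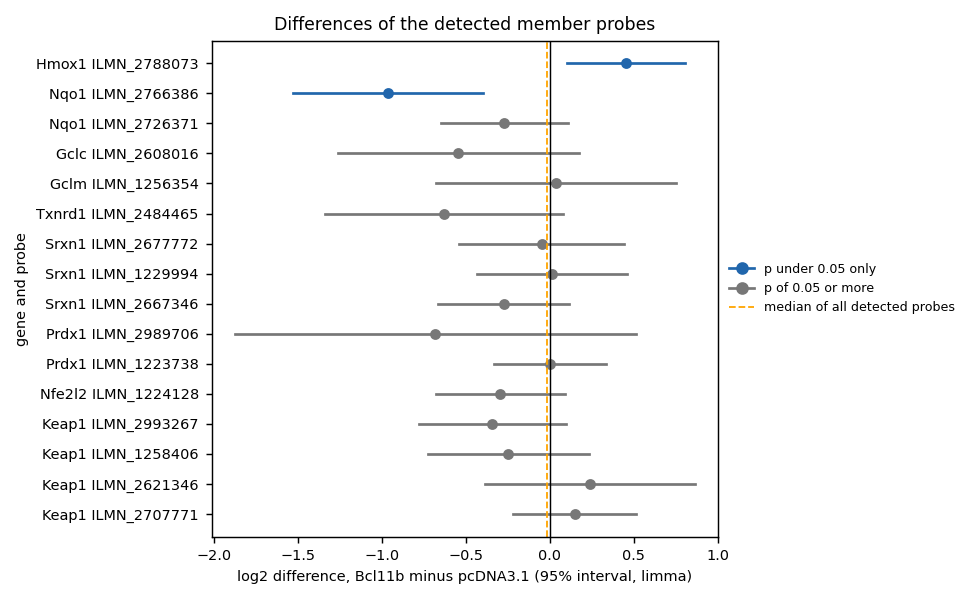
Log2 difference between Bcl11b and pcDNA3.1 arrays (horizontal axis) for the 16 detected probes (vertical axis), as points with 95% intervals from limma, and the median of all detected probes as a dashed line at -0.016. The intervals of Hmox1 and of the dim Nqo1 probe lie on opposite sides of 0, and those of the other 14 probes include 0; for the dim Nqo1 probe the fitted value rests on signals below detection.

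Counted together, 1 of the 16 detected probes (Hmox1) was higher by limma at an unadjusted 0.05. The 1 lower probe was the dim Nqo1 probe, which is in the set only through pcDNA3.1 arrays, and without it 1 of 15 passed. Among all 11755 detected probes 17.7% passed in either direction, 12.5% lower and 5.16% higher, so the share among these genes was not above the background. None of the 16 passed an adjusted p-value of 0.10 (limma), where 1.67% of detected probes did. Without the dim Nqo1 probe, 1 of 15 probes had groups that did not overlap, against 10.1% of detected probes. Over the 16 probes the median log2 difference was -0.26, beside -0.016 for all detected probes, and 10 of the 16 differences were negative, against 51.7% of all detected probes. Without the dim Nqo1 probe, the median was -0.25 and 9 of 15 were negative. With 1 probe per gene (the brightest), 6 of 9 differences were negative, with a median of -0.27, and only Hmox1 passed an unadjusted 0.05. Several of these probes measure the same transcript, so they are not independent of each other.

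For most of these probes the range from the lowest to the highest array of a group was larger than the difference between the group means. Bcl11b replicate 4 was the array most often at an end of its group. Bcl11b replicate 4, the Bcl11b array with the highest median signal before normalization (30.2), was the highest of its group for 8 and the lowest for 7 of the 16 detected probes. It was low for Gclm, Prdx1, Txnrd1, Gclc and the Keap1 probes ILMN_2993267 and ILMN_1258406. It was high for Hmox1, Nfe2l2, Srxn1, the bright Nqo1 probe and the Keap1 probes ILMN_2707771 and ILMN_2621346. Among pcDNA3.1 arrays, replicates 1 and 2 were each the highest or the lowest for 10 of the 16 probes, and replicates 3 and 4 each for 6. Several genes have more than 1 probe. With 1 probe per gene, pcDNA3.1 replicates 1, 2 and 3 were at an end for 4 of 9 genes each. By that count pcDNA3.1 replicate 4 was at an end for 6 and Bcl11b replicate 4 for all 9. Each group of 4 arrays has 1 highest and 1 lowest array per probe, so the counts of the pcDNA3.1 arrays are near an even share. Such counts over all detected probes are not given, so they do not set these genes apart. Gclc and Txnrd1 shared their highest arrays, pcDNA3.1 replicate 4 and Bcl11b replicate 2. Without Bcl11b replicate 4, Hmox1 was still higher, by 0.36 (adjusted p = 0.373 from limma), and the median over the 16 probes was -0.22. Which property of these cultures or arrays the spread follows was not tested.

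**Figure D3:**
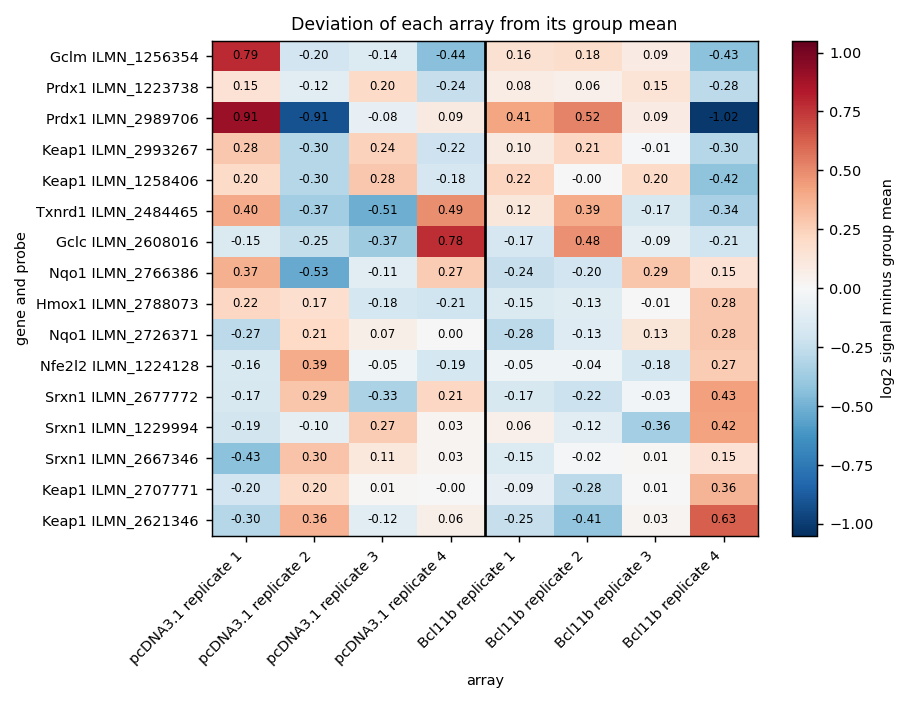
Log2 signal of each array (columns, 4 of each group) minus the mean of its own group, for the 16 detected probes (rows), with red above and blue below the mean. The rows are ordered with the probes that are negative on Bcl11b replicate 4 above those that are positive on it, so the blocks in that column come from this order. In that column the upper rows (Gclm, Prdx1 and 2 Keap1 probes) are negative, down to -1.02, and the lower rows (Srxn1 and the other 2 Keap1 probes) are positive, up to 0.63.

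The 10 genes are a small part of the Nrf2 system, so 6 lists of related genes were described in the same fit, by the brightest probe of each gene. Of 68 listed genes, 67 were matched to a probe and 55 were detected on at least 1 array. By limma, 2 were higher and 8 lower in Bcl11b-transfected cells at an unadjusted 0.05, or 18.2% of those detected. Over all detected symbols with 1 probe each 19.2% passed, 14.4% lower and 4.76% higher, so these lists as a whole were not above the background either. The median log2 difference of the 55 genes was -0.04. At an adjusted p-value under 0.10, 1 was higher (Maff) and 2 were lower (Me1 and Ephx1), where 1.92% of detected symbols passed.

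Among the partners of Nrf2, 10 of 12 genes were detected, 1 rose and 1 was lower at an unadjusted 0.05. These are 20% of the detected partners, beside 19.2% of detected symbols. Maff (ILMN_1256996), a small Maf protein that pairs with Nrf2 and is also known as a rapidly induced gene, was 7.99, 7.62, 7.69 and 7.42 in pcDNA3.1 cells, in log2 signal. In Bcl11b-transfected cells it was 8.68, 8.62, 8.87 and 8.53, so that the lowest Bcl11b array stood well above the highest pcDNA3.1 array. It rose 1.99-fold (log2 difference 1.00, standard error 0.135, adjusted p = 0.0558 from limma). Without normalization between arrays, where the median of detected probes was -0.68, the difference was 0.27 and did not pass (adjusted p = 0.504 from limma). A second Maff probe (ILMN_2629354) was not detected on any array. The adjusted p of Maff passed 0.10 in 8 of 16 alternatives, over which it ranged from 0.0212 to 0.504. Bach2, a repressor that binds the same DNA motif, was lower by an unadjusted test (log2 difference -0.60, adjusted p = 0.315 from limma). The other small Maf genes Mafg and Mafk, Bach1, which competes with Nrf2 for its sites, and the ligase subunit Cul3 did not pass 0.05.

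In the NADPH-producing list, all 6 genes were detected, all 6 differences were negative, and 1 passed the test. Of all detected probes, 51.7% had negative differences. The 1 gene is 16.7% of the list at an unadjusted 0.05, beside 19.2% of detected symbols. Me1 (ILMN_2774690, listed under its older symbol Mod1), the cytosolic malic enzyme, was 10.88, 10.80, 10.91 and 11.01 in pcDNA3.1 cells and 10.37, 10.48, 10.45 and 10.25 in Bcl11b-transfected cells. The groups were further apart than the spread of either. It fell to 70.1% of the pcDNA3.1 level (log2 difference -0.51, standard error 0.0644, adjusted p = 0.0457 from limma). A second Me1 probe (ILMN_2937261) had a difference of -0.47 (adjusted p = 0.271 from limma) with groups that did not overlap. The adjusted p of the first probe passed 0.10 in 7 of 16 alternatives, and it was 0.105 where only probes detected on at least 4 arrays were fitted.

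Of the iron, haem and detoxification genes, 9 of 13 were detected and 3 were lower at an unadjusted 0.05. That is 33.3% of only 9 genes, beside 14.4% of detected symbols that were lower. Ephx1 (ILMN_2664224), microsomal epoxide hydrolase, was 10.90, 10.80, 11.14 and 10.95 in pcDNA3.1 cells and 10.48, 10.45, 10.55 and 10.39 in Bcl11b-transfected cells. All Bcl11b arrays lay below all pcDNA3.1 arrays. The log2 difference was -0.48 with a standard error of 0.0768 (limma, adjusted p = 0.0795), a fall that passed 0.10 in 5 of 16 alternatives. Osgin1 (ILMN_2645780, older symbol 1700012B18Rik), an oxidative stress-induced growth inhibitor, had the largest fitted difference of the 10 related genes named here. Its log2 signals were 8.76, 7.79, 9.15 and 8.92 against 7.64, 7.38, 7.14 and 7.22. The groups did not overlap, with pcDNA3.1 replicate 2 close to the Bcl11b arrays. The difference was -1.31 (40.3% of the pcDNA3.1 level, standard error 0.310, adjusted p = 0.201 from limma), and without pcDNA3.1 replicate 2 it was -1.61 with an adjusted p of 0.0283. The adjusted p of Osgin1 passed 0.10 in 2 of 16 alternatives, over which it ranged from 0.0283 to 0.467 (limma). Slc48a1, a haem transporter, had a difference of -0.42 (unadjusted p = 0.0385, adjusted p = 0.441 from limma). It was over an unadjusted 0.05 in 6 of 16 alternatives.

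The glutathione list had 16 of 23 genes detected, with 1 lower (6.25%, beside 19.2% of detected symbols in either direction) and none higher at an unadjusted 0.05. That gene was Slc7a11 (ILMN_2948143), the cystine importer that feeds glutathione synthesis, at 8.45, 8.46, 8.37 and 8.73 in pcDNA3.1 cells and 8.12, 7.86, 8.07 and 8.20 in Bcl11b-transfected cells. The groups did not overlap, and the difference was -0.44 (standard error 0.104, adjusted p = 0.199 from limma). In the thioredoxin list all 10 genes were detected, and 3 (30%) were under an unadjusted 0.05, beside 19.2% of detected symbols. Txnrd2, the mitochondrial thioredoxin reductase, was lower on both of its probes, by -0.65 (ILMN_2424605, adjusted p = 0.255 from limma) and -0.56 (ILMN_1231952, adjusted p = 0.275 from limma). Txnrd3, a further thioredoxin reductase, had a difference of -0.44 (adjusted p = 0.264 from limma). Txnip, which encodes an inhibitor of thioredoxin, was higher by 0.55 (adjusted p = 0.334 from limma), and this turned to -0.16 without normalization between arrays. The 3 reductases Txnrd1, Txnrd2 and Txnrd3 thus had differences of -0.63, -0.65 and -0.44, of which the last 2 were under an unadjusted 0.05. All 4 genes for superoxide dismutases and catalase were detected and none passed 0.05 (median log2 difference 0.03).

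**Figure D4:**
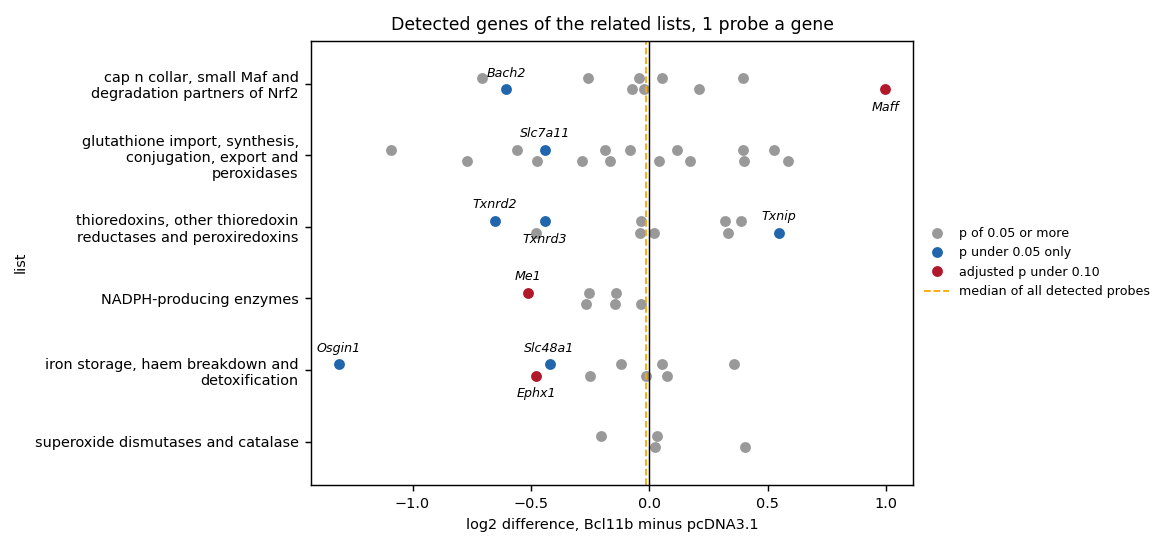
Fitted log2 difference between Bcl11b and pcDNA3.1 arrays (horizontal axis) for each detected gene of the 6 related lists (vertical axis), with red points at an adjusted p-value under 0.10, blue points at an unadjusted p-value under 0.05 only, and the median of all detected probes as a dashed line. Maff (1.00) is the red point on the right, and Me1 (-0.51) and Ephx1 (-0.48) are the red points on the left.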

How the data were processed

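RNA of 8 STHdh cultures was hybridized to Illumina arrays. The authors deposited, without normalization between arrays, 1 average bead intensity per probe and array and its detection p-value. GenomeStudio is named in the submitters' processing notes, and values below 0 show that background had been subtracted. The deposited table names probes and symbols only. Symbols were matched directly or through an older symbol of a single gene in RefSeq (GRCm38.p6). Of the intensities, 30.6% to 31.6% per array were at or below 0.

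As in the methods of the study, intensities were quantile-normalized and compared with limma (version 3.58.1, R 4.3.3), using lmFit and eBayes without covariates. The floor of 1 before log2 was added here. Benjamini-Hochberg adjustment ran over 25697 probes. The fit was tested on simulated data. A probe detected on no array of 1 group is given a bound, which sets the brighter group's mean against the other group's detection limit on each array or the probe's own signal, whichever is higher. The labels do not say that replicates are separate cultures, though the study describes different sets of transfected cells, and p-values measure the spread between these arrays, whose number limits the precision. No signal was identical on any pair of arrays. Named are all member probes, Bcl11b, markers detected on all arrays and, of each related list, genes with an adjusted p-value under 0.10 and otherwise up to 4 with the smallest unadjusted p-value under 0.05 and detection on at least 4 arrays. Other genes (Mafg, Mafk, Bach1, Cul3) were named after their values were seen. The members and lists were chosen with earlier results of these data known. Alternatives were other normalizations, neqc, an offset of 16, a detection filter, limma-trend with robust eBayes, arrayWeights, the replicate number as a block, and leaving out each array.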

Additional observations from a re-analysis of the deposited data

Results flagged for a closer look

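Among 26 probes named in the results, 52 groups of 4 arrays were examined for 1 array far from the other 3, and 3 groups had one, where chance gives about 1 in 20. In log2 signal, Bcl11b replicate 2 stood apart for Gclc (8.37, with the nearest array at 7.80). Bcl11b replicate 4 stood apart for Gclm (10.83, nearest 11.35) and for Slc48a1 (11.94, nearest 11.47). Replicates of a group have no condition of their own, and no cause was tested.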

How the results depend on the processing

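The count of all probes at an adjusted p-value under 0.10 (252) was 57 without normalization between arrays, 413 with neqc, 45 with limma-trend (35 higher), 642 with arrayWeights and 45 with the replicate number as a block (23 higher). With 1 array left out it ranged from 87 to 637, the latter without pcDNA3.1 replicate 2 (175 higher and 462 lower) and the former without Bcl11b replicate 1 (53 higher and 34 lower). The number of member probes at an unadjusted 0.05 (2, with the dim Nqo1 probe) was 10 without normalization, all lower, 5 with arrayWeights and 1 with the block, and 1 to 3 with 1 array left out. At an adjusted 0.10 (0) it was 1 with arrayWeights and 0 to 1 with 1 array left out. The related genes at an unadjusted 0.05 (10) were 25 without normalization, 18 with arrayWeights and 9 to 17 with 1 array left out, the highest without Bcl11b replicate 4. Member probes without overlap (2) were 6 without normalization, 1 among probes detected on at least 4 arrays, and 2 to 3 with 1 array left out. Without normalization, the median difference was -0.68 for detected probes and -0.95 for the member probes. In the main fit these medians were -0.016 and -0.26, so both sets moved by a similar amount. There the differences of Hmox1 (-0.24), Gclm (-0.59), Srxn1 ILMN_1229994 (-0.72), Prdx1 ILMN_1223738 (-0.27), Keap1 ILMN_2621346 (-0.46) and ILMN_2707771 (-0.55) and Txnip (-0.16) changed sign. Prdx1 ILMN_1223738 was 0.43 with division by the array median. Srxn1 ILMN_1229994 changed sign with that division (-0.024) and with arrayWeights (-0.070). With 1 array left out, the sign changed for Gclm (-0.11 to 0.30), Prdx1 ILMN_1223738 (-0.084 to 0.091), Srxn1 ILMN_2677772 (-0.19 to 0.051) and Srxn1 ILMN_1229994 (-0.13 to 0.13). In the main fit these differences were 0.04, 0.0015, -0.05 and 0.01. The cause was not tested.

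Whether the replicate numbers pair the samples is not settled by these arrays. Over 9360 probes detected on all arrays, deviations of same-numbered arrays correlated at 0.68, -0.63, 0.18 and 0.70. Replicates 1 and 4 correlated best with the same number, and replicates 2 and 3 with other numbers. With the block, the adjusted p was 0.548 for Hmox1, now over an unadjusted 0.05, and 0.351 for the dim Nqo1 probe (limma), and 4 related genes were higher and 9 lower at an unadjusted 0.05. Dim probes such as Nqo1 ILMN_2766386 are limited by signal over background.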
